A study of Mus musculus with 12 samples.

Results

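Nat8, Nat8f1, Nat8f2 and Nat8f5 are 4 neighbouring genes of the mouse Nat8 family of N-acetyltransferases, followed here in female liver with and without estrogen receptor alpha on 2 diets. The genes were chosen by their measured differences between the genotypes in these same arrays, so their genotype differences are given as a description, with no test. Probe sets were assigned to them by the platform's gene symbol, brought up to date from the older names Cml1 to Cml5, which gave 4 of the 18194 genes that had a probe set of their own and 7 of the 45101 probe sets. Nat8 and Nat8f5 had 1 probe set each, Nat8f1 had 2 and Nat8f2 had 3, and none of the 7 listed a further gene.

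The liver samples came from adult female mice of the B6.129 strain, with 1 array each. Wild type mice (WT, Esr1+/+) and mice lacking the estrogen receptor alpha gene (αERKO, Esr1-/-) received either the normal NIH-31 diet or a diet with 60 kcal% fat (research diet #12492) for 2 weeks. Each of the 4 combinations of genotype and diet had 3 arrays. The labels do not state that the 3 came from different animals, so the spread between them, on which all p-values here rest, may be partly technical. All samples are whole liver, in which fewer cells of a type and less RNA per cell cannot be told apart.

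NAT8 family proteins have the GCN5-related acetyltransferase fold and sit in the membrane of the endoplasmic reticulum. The human enzyme NAT8 acetylates cysteine S-conjugates, the last step in making mercapturates, the form in which many glutathione-conjugated toxicants leave the body in urine. Human NAT8 has also been described as an acetyltransferase for lysines of proteins in the endoplasmic reticulum, which draws on acetyl-CoA brought in by the transporter Slc33a1. Kidney and liver are the known main sites of NAT8 expression. The mouse genes were earlier called camello-like, after a frog gene of the same family, and the separate roles of Nat8f1, Nat8f2 and Nat8f5 are left out here. The more distant relative Nat8l makes N-acetylaspartate in the brain.

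All 8 clustered family genes lie side by side on chromosome 6, in the order Nat8f7, Nat8f3, Nat8f6, Nat8f5, Nat8, Nat8f2, Nat8f4 and Nat8f1. The 250 bases before the annotated start of each of the 4 genes are printed to set the sequences of these neighbouring genes beside each other. The sequences are from RefSeq on the build GRCm38.p6, read 5′ to 3′ on the minus strand, where the genes lie, and the capitals mark matches to the motifs searched. Nat8 has 2 annotated starts in that table, and the downstream one is shown.
Nat8f5 (chr6:85820973-85821222, minus strand): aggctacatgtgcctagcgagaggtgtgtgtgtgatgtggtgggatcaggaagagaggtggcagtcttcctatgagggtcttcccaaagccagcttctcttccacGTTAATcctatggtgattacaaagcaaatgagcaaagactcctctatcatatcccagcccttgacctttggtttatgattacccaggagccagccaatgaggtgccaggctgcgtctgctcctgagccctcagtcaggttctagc
Nat8, downstream start (chr6:85832280-85832529, minus strand): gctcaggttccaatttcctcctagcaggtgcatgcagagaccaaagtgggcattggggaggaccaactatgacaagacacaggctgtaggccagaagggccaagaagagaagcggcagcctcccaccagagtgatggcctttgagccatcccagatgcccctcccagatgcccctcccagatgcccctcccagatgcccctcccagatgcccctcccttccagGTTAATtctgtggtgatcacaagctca
Nat8f2 (chr6:85869138-85869387, minus strand): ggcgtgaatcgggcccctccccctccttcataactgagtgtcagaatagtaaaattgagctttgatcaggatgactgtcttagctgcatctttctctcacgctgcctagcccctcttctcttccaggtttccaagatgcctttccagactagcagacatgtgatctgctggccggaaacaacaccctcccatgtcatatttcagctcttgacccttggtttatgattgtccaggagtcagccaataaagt
Nat8f1 (chr6:85915633-85915882, minus strand): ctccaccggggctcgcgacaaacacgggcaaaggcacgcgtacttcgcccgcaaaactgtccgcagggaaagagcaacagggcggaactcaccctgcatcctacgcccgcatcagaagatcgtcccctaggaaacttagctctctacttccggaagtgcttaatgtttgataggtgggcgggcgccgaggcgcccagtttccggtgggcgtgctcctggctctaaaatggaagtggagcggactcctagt

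Of the 10 family promoters in the RefSeq table, which belong to 8 genes and include all 4 genes described, none held the STAT5 motif TTCNNNGAA or the HNF6 motif ATTGAT between 250 bases before and 50 after the start, on either strand. These motifs occurred in 8.30% and 7.54% of all 32851 promoters of that length. The full estrogen response element, GGTCA inverted around a spacer of 3 bases, was in none of the 10 and in 0.0700% of all promoters. The HNF1 motif GTTAAT occurred before Nat8f5, 145 bases upstream of its start, and before the downstream start of Nat8, 27 bases upstream, and in 7.10% of all promoters. The HNF4 motif CAAAGTC lay just after the downstream start of Nat8 and upstream of Nat8f4 (4.44% of all promoters). The TATA box TATAAA lay in promoters of Nat8f7, Nat8f6 and Nat8f4 (13.6%), and in none of the 4 genes described. These are matches of letters in a window and do not show that a factor binds.

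Stretches shared between promoters were looked for after the sequences had been seen. The proximal promoters of Nat8f5 and Nat8f2 held a stretch of 65 bases with 53 identical, shown with the identical bases in capitals. It is not particular to this pair, since most of the same Nat8f5 stretch also aligned to the promoter of Nat8f7, with 53 of 63 aligned bases identical and 6 gaps.
Nat8f5 (chr6:85821015-85821079, minus strand): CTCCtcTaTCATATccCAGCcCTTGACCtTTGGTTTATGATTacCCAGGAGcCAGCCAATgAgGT
Nat8f2 (chr6:85869138-85869202, minus strand): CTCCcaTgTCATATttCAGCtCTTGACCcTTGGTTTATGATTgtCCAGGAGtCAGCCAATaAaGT

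A second stretch of 34 bases, with 28 identical, was shared by Nat8f5 and the downstream start of Nat8 and contains the HNF1 motif of both. This part of the Nat8 promoter matched Nat8f6 more closely, with 31 of 33 aligned bases identical, and Nat8f7 with 22 of 23. Capitals again mark bases identical between the 2 sequences shown.
Nat8f5 (chr6:85821096-85821129, minus strand): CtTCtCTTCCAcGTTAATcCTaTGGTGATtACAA
Nat8, downstream start (chr6:85832285-85832318, minus strand): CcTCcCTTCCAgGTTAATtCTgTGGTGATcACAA

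The closest promoters in the family were others, with 286 of 292 aligned bases identical between the promoters of Nat8f7 and Nat8f6 and 203 of 206 between Nat8f3 and the upstream start of Nat8. Transcripts of such close relatives can bind each other's probes, and whether any probe set read more than its own gene was not tested.

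The values are signals of the MAS5 algorithm, a linear intensity with arrays scaled to a common level. The targeted gene Esr1 followed the labels on its brightest probe set, with 1963 to 3930 (n = 6) in WT and 586 to 885 (n = 6) in αERKO, and on the second, with 481 to 1259 and 99.5 to 241. The third was dim and overlapped between the genotypes, and where the probes lie relative to the deletion was not examined. All 8 hepatocyte markers were above the array median on most arrays, and their mean log2 signal was between 15.1 and 15.7 on every array. Markers of kidney tubule, the other main site of NAT8, were low, with 5 of 9 above the array median on no array and a mean log2 signal of 5.52 to 6.41 in WT normal, 5.90 to 6.14 in WT high-fat, 5.58 to 5.85 in αERKO normal and 5.77 to 6.35 in αERKO high-fat livers. The kidney transporter Slc5a2 and the tubule receptor Lrp2 were the 2 markers above the median on 6 or more arrays. Pancreatic acinar markers stood apart on 4 arrays, with a mean log2 signal of 13.9 on WT normal replicate 2, 13.6 on αERKO normal replicate 1, 12.6 on WT high-fat replicate 3 and 10.1 on WT high-fat replicate 2, against at most 6.44 on the others. The 7 macrophage markers had a mean log2 signal of 10.8 in WT normal, 10.7 to 11.1 in WT high-fat, 10.2 to 10.7 in αERKO normal and 10.5 to 10.6 in αERKO high-fat livers, lower on every αERKO array than on any WT array of the same diet, and their part in the results was not tested. Skeletal muscle markers had a mean log2 signal of 10.5 on αERKO normal replicate 1, 8.43 on αERKO high-fat replicate 2 and 7.11 on αERKO normal replicate 2, against at most 6.69 on any other array, and their part and that of the acinar transcripts in the results was not tested beyond leaving arrays out.

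Of the 7 probe sets, 6 had a signal above the array median on all 12 arrays, so none of the 6 entered the tests through a high group alone. The remaining one, the Nat8f1 probe set 1458044_at, ranged from 17.6 to 88.5, was above the array median on 1 array, and was not tested. Differences are on the scale of log2(signal + 16), with standard errors (SE) from a linear model fitted with limma over 25412 probe sets, and a difference was called at a Benjamini-Hochberg adjusted p under 0.05 over all of them. The median difference over all tested probe sets lay between -0.05 and -0.01 in every comparison.

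Nat8, the namesake enzyme of the family, was low in WT and high in αERKO livers on both diets. Its probe set 1419520_at read 258, 385 and 135 in WT livers on the normal diet, and 269, 256 and 181 in WT livers on the high-fat diet. In αERKO livers it read 1670.3, 2089 and 1733 on the normal diet and 2133, 2536 and 2704 on the high-fat diet. The lowest αERKO array was above the highest WT array, the 2 WT groups overlapped, and the αERKO high-fat arrays were all above the αERKO normal arrays. The mean signal was 259 ± 125 (SD, n = 3) in WT normal and 1831 ± 226 (SD, n = 3) in αERKO normal livers, a ratio of 7.06. On the high-fat diet the means were 235 ± 47.3 and 2457 ± 293 (SD, n = 3 each), a ratio of 10.4. These are log2 differences of 2.85 ± 0.27 (SE) and 3.31 ± 0.27 (SE).

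Nat8f5, the gene next to Nat8, had the same order of genotypes and a wider range. Its probe set 1424811_at read 201, 273 and 179 in WT normal livers and 125, 142 and 114 in WT high-fat livers. In αERKO livers it read 922, 903 and 1288 on the normal diet and 1737, 1911 and 2039 on the high-fat diet. No pair of the 4 groups overlapped, and the order from low to high was WT high-fat, WT normal, αERKO normal and αERKO high-fat. The means were 218 ± 49.0 and 1038 ± 217 (SD, n = 3 each) for WT and αERKO on the normal diet, a ratio of 4.77. On the high-fat diet they were 127 ± 14.1 and 1896 ± 152 (SD, n = 3 each), a ratio of 14.9. The log2 differences between the genotypes were 2.17 ± 0.18 (SE) and 3.74 ± 0.18 (SE).

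Nat8f1, at the far end of the cluster, separated the diets more than the genotypes. Its probe set 1418013_at read 2049, 2594 and 1872 in WT normal livers and 3282, 3285 and 4096 in WT high-fat livers. In αERKO livers it read 3029, 3108 and 2186 on the normal diet and 4485, 3516 and 5488 on the high-fat diet. Within each genotype all high-fat arrays were above all normal diet arrays, while WT and αERKO overlapped on both diets. The genotype differences were 0.35 ± 0.18 (SE) on the normal and 0.32 ± 0.18 (SE) on the high-fat diet, on the log2 scale.

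Nat8f2, between Nat8 and Nat8f4, was highest in αERKO livers on the high-fat diet by all 3 of its probe sets. The brightest, 1455232_at, read 16918, 15281 and 9031 in WT normal livers and 15847, 13867 and 13864 in WT high-fat livers. In αERKO livers it read 15163, 18089 and 17345 on the normal diet and 23741, 22899 and 19233 on the high-fat diet. Every αERKO high-fat array was above every other array, and the other 3 groups overlapped. The lowest value came from WT normal replicate 3, which also gave the lowest Nat8 value and had the highest array median, at 114. The genotype difference was 0.34 ± 0.18 (SE) on the normal diet, 0.065 without that array, and 0.59 ± 0.18 (SE) on the high-fat diet.

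The probe set 1421108_at of Nat8f2 read 4082, 4081 and 3595 in WT normal, 3627, 4779 and 3941 in WT high-fat, 4262, 4413 and 4746 in αERKO normal and 6223, 6428 and 5637 in αERKO high-fat livers. The probe set 1421109_at read 2113, 2383 and 1943 in WT normal, 1811, 1897 and 2083 in WT high-fat, 2109, 2637 and 2606 in αERKO normal and 4128, 2882 and 2869 in αERKO high-fat livers. On both, the αERKO high-fat arrays were above all arrays of the other groups. On the normal diet the genotypes overlapped by 1421109_at and not by 1421108_at. The genotype differences on the high-fat diet were 0.57 ± 0.11 and 0.75 ± 0.15 (SE), against 0.19 ± 0.11 and 0.19 ± 0.15 (SE) on the normal diet.

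**Figure D1:**
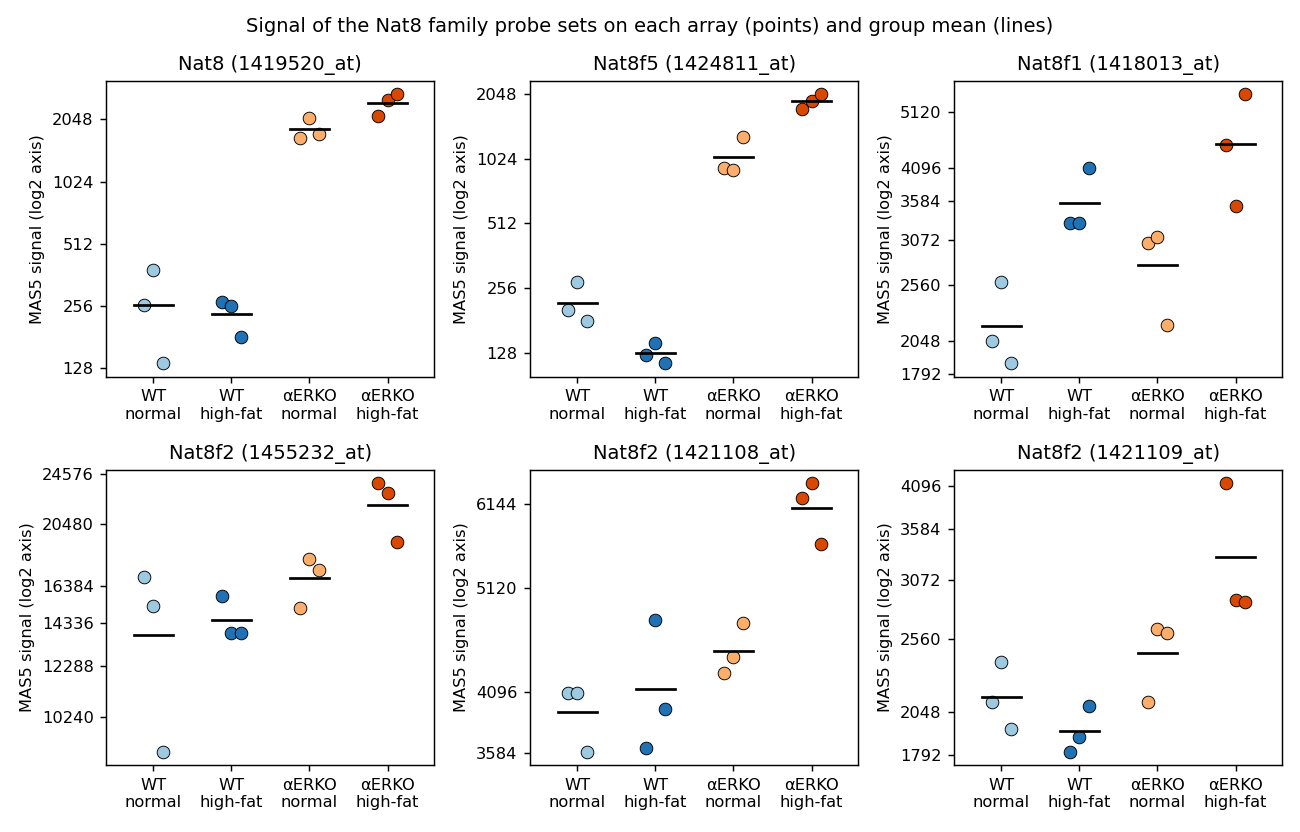
MAS5 signal (log2 axis, a separate range in each panel) of the 6 tested probe sets in the 4 groups, with a point for each array and a line at the group mean (n = 3). Nat8 and Nat8f5 lie low in WT and high in αERKO livers, Nat8f1 is higher on the high-fat diet in both genotypes, and the 3 Nat8f2 probe sets are highest in αERKO livers on the high-fat diet.

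Counted over the 6 tested probe sets, all αERKO arrays lay above all WT arrays for 3 on the normal diet (Nat8, Nat8f5 and 1421108_at of Nat8f2), where 5.88% of all tested probe sets did so. Without αERKO normal replicate 1 that count was 5, and without the 4 arrays that carried pancreatic transcripts it was 6. Groups with fewer arrays overlap less readily, and the share over all probe sets was not computed for these smaller sets. On the high-fat diet the count was 5, all but Nat8f1, where 8.65% of all tested probe sets did so. The genes had been chosen on these comparisons, and nothing is read from the counts. The median log2 difference of the 6 was 0.34 on the normal and 0.67 on the high-fat diet, against -0.05 over all tested probe sets in both.

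Whether 2 weeks of high-fat diet moved these genes in WT liver was tested with a contrast that had not chosen them, although its arrays also entered the genotype comparisons that had. By limma, 0 of the 6 probe sets were called, where 0.0275% of all 25412 were called, and 2 of 6 had an unadjusted p under 0.05, as had 7.54% of all. Those 2 lay in opposite directions. Nat8f1 was 1.64 times as high on the high-fat diet, with means of 3554 ± 469 against 2172 ± 376 (SD, n = 3 each) and a log2 difference of 0.71 ± 0.18 (SE, adjusted p = 0.304). Nat8f5 was 1.71 times lower, with a log2 difference of -0.69 ± 0.18 (SE, adjusted p = 0.354). The differences of Nat8 and the 3 Nat8f2 probe sets were between -0.15 and 0.13, with adjusted p from 0.879 to 0.987, and the 95% interval for Nat8 ran from -0.62 to 0.54. The 6 had a median log2 difference of 0.01, against -0.01 over all.

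In αERKO liver all 6 probe sets, from all 4 genes, were higher on the high-fat diet, with no overlap between the 3 arrays of each diet, where 7.48% of all tested probe sets had that pattern. None of the 6 was called by limma, against 0.181% of all, and 4 had an unadjusted p under 0.05, as had 9.26% of all. Here too the arrays entered the genotype comparisons on which the genes were chosen, so neither diet comparison nor the interaction is independent of the choice. Nat8f5 was 1.83 times as high, with a log2 difference of 0.88 ± 0.18 (SE, adjusted p = 0.0902). With array quality weights it was 0.84 ± 0.17 (SE), and this was a call by limma (adjusted p = 0.0363). The weights called 194 of all 25412 probe sets, against 46 in the main fit. Of 17 alternatives this was the only 1 that called Nat8f5, and limma adjusted p reached 0.310 among them.

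Nat8f1 was 1.62 times as high on the high-fat diet in αERKO liver, with means of 4496 ± 986 against 2775 ± 511 (SD, n = 3 each) and a log2 difference of 0.69 ± 0.18 (SE, adjusted p = 0.191). Nat8 was 1.34 times as high, a log2 difference of 0.42 ± 0.27 (SE, adjusted p = 0.687). The Nat8f2 probe sets differed by 0.38 to 0.44 on the log2 scale, the largest of them, 1421108_at, by 0.44 ± 0.11 (SE, adjusted p = 0.177). The median over the 6 was 0.43, against -0.01 over all tested probe sets.

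The interaction, the diet difference in αERKO minus that in WT, asks whether the genotypes answered the diet differently. None of the 6 probe sets was called by limma, nor was any of the 25412 (0%), and 3 of 6 had an unadjusted p under 0.05, as had 5.45% of all. Nat8f5 had an interaction of 1.57 ± 0.26 (SE, 95% interval 1.01 to 2.13), with an adjusted p of 0.160, and stood in place 3 of 25412 by unadjusted p. All WT high-fat arrays of Nat8f5 were below the WT normal arrays and all αERKO high-fat arrays above the αERKO normal arrays, a pattern found in 58 of the 25412 probe sets (0.228%). Without the 4 arrays that carried pancreatic transcripts the Nat8f5 interaction was 1.35. That fit had replicate 1 as its only WT high-fat array.

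The interaction of Nat8f1 was -0.03 ± 0.26 (SE, 95% interval -0.58 to 0.53), with an adjusted p of 0.995. Nat8 had an interaction of 0.46 ± 0.38 (SE, adjusted p = 0.916). Without the same 4 arrays, again with replicate 1 as the only WT high-fat array, it was -0.13. For the Nat8f2 probe sets the interaction was 0.25 ± 0.25, 0.38 ± 0.16 and 0.56 ± 0.21 (SE), with adjusted p between 0.894 and 0.928. The median of the 6 was 0.42, against -0.01 over all.

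**Figure D2:**
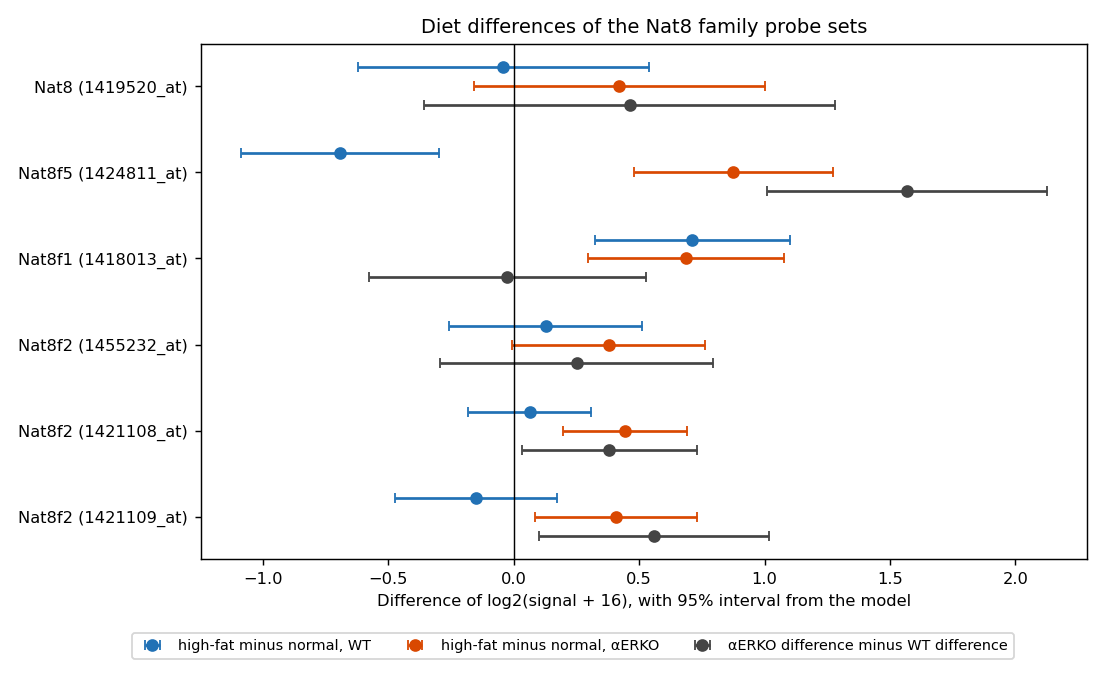
Difference of log2(signal + 16) between the diets in WT (blue) and αERKO (red) livers and the difference of those differences (grey) for each tested probe set, with 95% intervals from the model. Nat8f5 lies at -0.69 in WT and 0.88 in αERKO, Nat8f1 at 0.71 and 0.69, and none of the differences was called after adjustment over all probe sets.

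Likeness of profile was measured as the root mean square difference of log2 values over the 12 arrays, after subtracting each probe set's own mean. For Nat8 and Nat8f5 this distance is set largely by the genotype differences on which the genes were chosen, so it describes them and supports nothing further. The probe set most like Nat8 was that of Nat8f5, at 0.386, and the reverse also held. Next to Nat8 came Cyp2d9, a cytochrome P450, at 0.507, Elovl3, a fatty acid elongase, at 0.536, Omd, the matrix protein osteomodulin, at 0.609, and Susd4, a complement regulator, at 0.670. Next to Nat8f5 came Omd at 0.554, Elovl3 at 0.563, Cyp2d9 at 0.645 and Snhg11, a noncoding host gene of small nucleolar RNAs, at 0.660.

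The neighbours of Nat8f1 and Nat8f2 were different genes. Nat8f1 was followed by Tlcd2 at 0.205, Cetn2, a centrin, at 0.209, C730049O14Rik at 0.210, Slc46a3, a lysosomal transporter, at 0.213 and Mospd2 at 0.225. The brightest probe set of Nat8f2 was followed by Cpsf6, an RNA 3′ end processing factor, at 0.106, Ndufb2, a respiratory complex I subunit, at 0.115, Elmod2 at 0.116, Pet100 at 0.121 and Rbpms at 0.140. Seen from Nat8, of 21557 probe sets Nat8f1 stood in place 1355, at 1.44, and the brightest Nat8f2 probe set in place 331, at 1.33. Seen from Nat8f1, Nat8 stood in place 21472 of 21557, and seen from that Nat8f2 probe set, in place 21452 of 21555.

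Among the other family genes, Nat8f4 was read by 3 probe sets that passed the filter. The brightest, 1436670_x_at, read 1454 to 1476 in αERKO high-fat livers, above the 850.3 to 1347 of all other arrays, and differed between the genotypes on the high-fat diet by 0.57 ± 0.15 (SE, adjusted p = 0.0929). Of the dimmer Nat8f4 probe sets, 1436669_at differed in the same direction, by 0.26 ± 0.22 (SE, limma adjusted p = 0.658). The other, 1420767_at, differed by -0.33 ± 0.36 (SE, limma adjusted p = 0.737), with a 95% interval of -1.10 to 0.43. A probe set shared by Nat8f6, Nat8f7 and Nat8f3 read 121 to 169 in αERKO high-fat and 16.0 to 38.5 in WT high-fat livers, a log2 difference of 1.78 ± 0.58 (SE, adjusted p = 0.172). It was above the array median on 5 arrays, of which 3 were αERKO high-fat, so it passed the filter through its high group. The probe sets of Nat8f3 alone and of Nat8l were below the array median on at least 11 of 12 arrays and were not tested.

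Genes on both sides of the cluster were examined to see whether the genotype differences extended along the chromosome. Of the 10 named protein-coding genes on each side, 14 had a tested probe set, and limma called 0 of 14 on either diet, where 0.92% of all genes were called on the normal and 1.6% on the high-fat diet. On each diet 1 of the 14 had an unadjusted p under 0.05, as had 10.9% and 13.9% of all tested probe sets. The nearest tested gene on one side, the chaperonin subunit Cct7, differed by -0.21 ± 0.10 on the normal and -0.22 ± 0.10 on the high-fat diet (SE, adjusted p = 0.468 and 0.363). On the other side Tprkb, of a tRNA-modifying complex, lies next to Nat8f1 and differed by 0.11 ± 0.14 and 0.01 ± 0.14 (SE, adjusted p = 0.832 and 0.991). The genes between Cct7 and the cluster, among them Alms1, had no tested probe set. Without αERKO high-fat replicate 3, 1 of the neighbours was called on the high-fat diet. That fit called 462 of 25130 probe sets over all, against 327 of 25412 in the main fit.

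**Figure D3:**
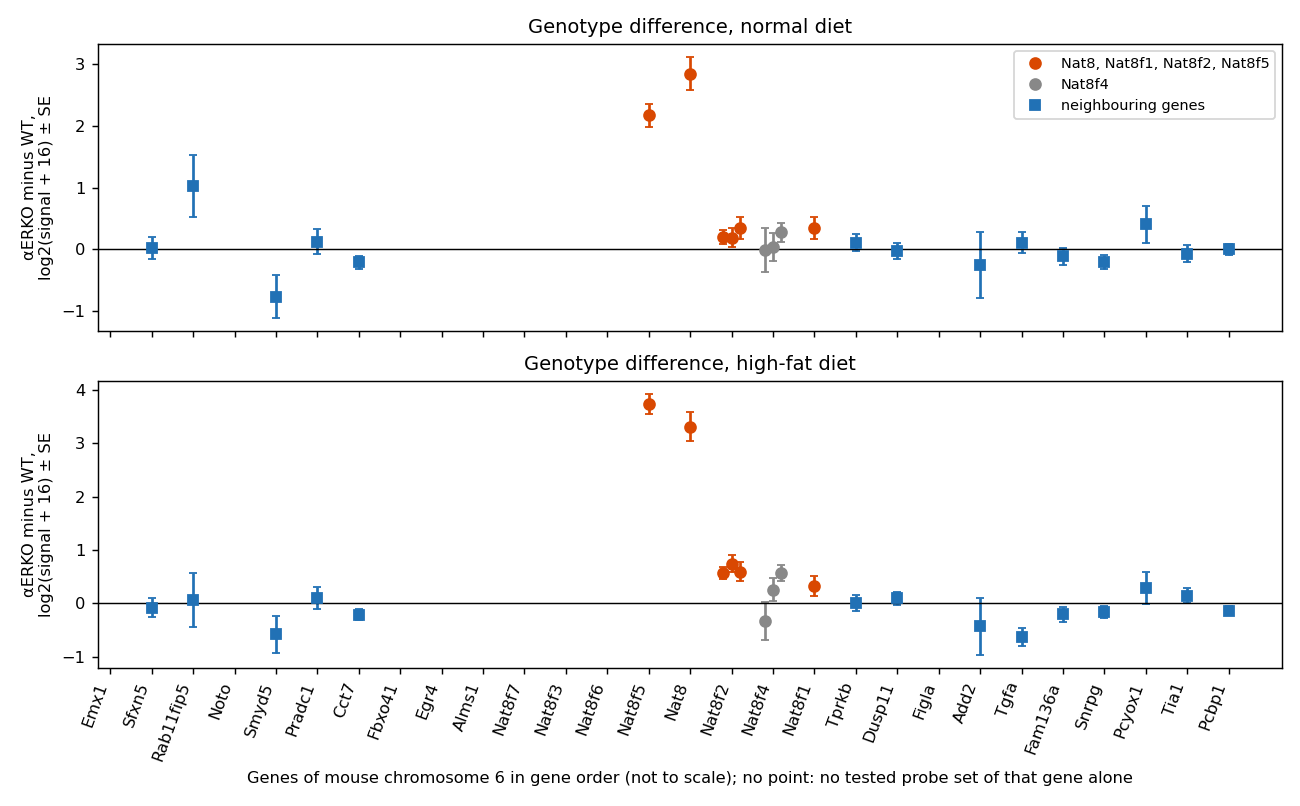
Genotype difference (αERKO minus WT, log2(signal + 16), with SE) along chromosome 6 in gene order, not to scale, on the normal diet (top) and the high-fat diet (bottom). Points are the tested probe sets of single family genes and the brightest tested probe set of each flanking gene. The tested probe set shared by Nat8f6, Nat8f7 and Nat8f3 is not shown. Nat8f5 and Nat8 stand at 2.17 and 2.85 on the normal diet and at 3.74 and 3.31 on the high-fat diet. The genes flanking the cluster lie between -0.77 and 1.02 on the normal and between -0.63 and 0.29 on the high-fat diet. On the normal diet the highest of these, Rab11fip5, read 8.11 to 121 in WT and 115 to 161 in αERKO livers. The lowest, Smyd5, read 171 to 206 in WT and 43.5 to 174 in αERKO livers.

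The pathway around NAT8 was described by 3 gene lists, drawn up with earlier results of these data known. The mercapturate list held genes for glutathione synthesis, breakdown of glutathione conjugates to cysteine conjugates, deacetylation and transport, of which 26 of 33 were tested. On the normal diet 1 was higher and 1 lower in αERKO livers, and on the high-fat diet also 1 and 1, where 0.92% and 1.6% of all genes were called in either direction. An unadjusted p under 0.05 by limma was found for 11 of the 26 on the normal and 3 on the high-fat diet, and for 10.9% and 13.9% of all tested probe sets. The median log2 differences of the list were -0.02 and 0.01. The efflux pump Abcg2 rose in αERKO livers on both diets, from 2163 to 2372 in WT to 3894 to 4706 in αERKO on the normal diet, a log2 difference of 0.93 ± 0.12 (SE, adjusted p = 0.000600). On the high-fat diet Abcg2 read 1718 to 2054 in WT and 4156 to 4990.2 in αERKO livers, a difference of 1.24 ± 0.12 (SE, adjusted p = 5.88e-05).

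Slc17a1, an anion and phosphate transporter, fell in αERKO livers on the normal diet by 0.74 ± 0.14 on the log2 scale (SE, adjusted p = 0.0250), and on the high-fat diet its difference was 0.03 ± 0.14. The count of called genes of the 3 lists on the normal diet was 2, and it was 1 without any one of WT normal replicates 1, 2 or 3 or αERKO normal replicates 1 or 2. Kyat3, a cysteine conjugate lyase, differed by -0.47 ± 0.10 (SE, adjusted p = 0.0501).

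Ggt5, a gamma-glutamyl transferase that starts the breakdown of glutathione conjugates, fell in αERKO livers on the high-fat diet, where 1439420_x_at read 52.7 to 105 against 326 to 403 in WT. The log2 difference was -2.10 ± 0.25 (SE, adjusted p = 0.000430). A second tested probe set of Ggt5, 1418216_at, differed by 0.23 ± 0.37 (SE, adjusted p = 0.831) and had a median signal of 106, so the probe sets of Ggt5 disagree.

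The diet called 1 gene of the lists in αERKO liver, where 0.277% of all genes were called, and 0 in WT liver, where 0.0488% were. The called gene was again Ggt5, lower on the high-fat diet by 1439420_x_at, with a difference of -1.46 ± 0.25 (SE, adjusted p = 0.0349). The count was 0 without any one of αERKO normal replicates 1 or 3 or αERKO high-fat replicates 2 or 3. In WT liver 4 of the 26 mercapturate genes, 5 of the 9 endoplasmic reticulum genes and 2 of the 28 other acyltransferases had an unadjusted p under 0.05 by limma, and in αERKO liver 6, 2 and 2, where 7.54% and 9.26% of all tested probe sets had one. The interaction called 0 genes of the lists and 0% of all genes, with an unadjusted p under 0.05 for 4, 1 and 1 genes of the 3 lists and 5.45% of all tested probe sets. Acy1, which removes the acetyl group from N-acetyl amino acids and some mercapturates, differed by 0.52 ± 0.19 (SE, adjusted p = 0.512) between the diets in WT liver.

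The list for acetylation in the endoplasmic reticulum held acetyl-CoA supply enzymes, the transporter and known substrates, and all 9 were tested. By limma 0 of 9 were called between the genotypes on either diet, where 0.92% of all genes were called on the normal and 1.6% on the high-fat diet. An unadjusted p under 0.05 was found for 2 on the normal and 4 on the high-fat diet, and for 10.9% and 13.9% of all tested probe sets. Slc33a1, the acetyl-CoA transporter, differed by 0.38 ± 0.14 on the normal and 0.50 ± 0.14 on the high-fat diet (SE, adjusted p = 0.309 and 0.0983). Bace1, a protease whose acetylation has been studied in cells, differed by -0.56 ± 0.17 on the high-fat diet (SE, adjusted p = 0.134).

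Among the other acyltransferases 28 of 35 were tested, and 1 was called between the genotypes, on the high-fat diet, where 1.6% of all genes were called. An unadjusted p under 0.05 by limma was found for 4 on the normal and 6 on the high-fat diet, and for 10.9% and 13.9% of all tested probe sets. Baat, which conjugates bile acids to amino acids, rose in αERKO livers, from 4711 to 5066 in WT to 6569 to 7671, a log2 difference of 0.54 ± 0.11 (SE, adjusted p = 0.0283). Its second probe set differed by 0.62 ± 0.16 (SE, adjusted p = 0.0782). Keg1, a glycine N-acyltransferase-like gene, differed by 1.14 ± 0.40 and 1.09 ± 0.40 on the 2 diets (SE, adjusted p = 0.297 and 0.232). The median differences of this list were 0.03 on both diets, against -0.05 on the normal and -0.03 on the high-fat diet over all genes.

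**Figure D4:**
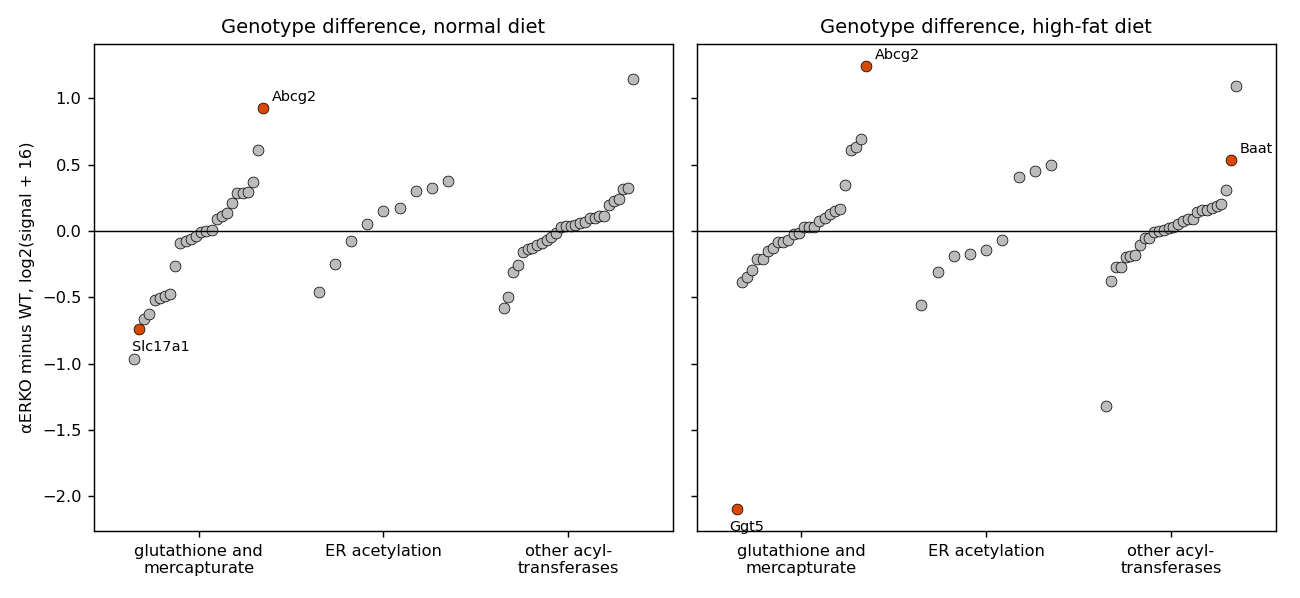
Genotype difference (αERKO minus WT, log2(signal + 16)) of every tested gene of the 3 lists, in order of size within a list, on the normal diet (left) and the high-fat diet (right), with called genes in red. Abcg2 stands highest of the mercapturate list on both diets, at 0.93 and 1.24, and Ggt5 lowest on the high-fat diet, at -2.10.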

How the data were processed

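Liver RNA of 12 samples was hybridised to 1-colour Affymetrix 3' arrays. Per the labels' protocols, RNA was isolated with Trizol, cleaned on RNeasy columns with DNase and labelled with a 3' IVT Express kit. The authors deposited 1 linear intensity per probe set and array, made with Affymetrix Expression Console and MAS5 per the submitters' processing notes. The mean intensity without the lowest and highest 2% was 500.004 on each array, and array medians were 75.6 to 114. MAS5 treats each array alone, so dim signals scatter widely on a log scale.

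Samples were grouped by genotype and diet in the labels. Probe sets above the array median on at least 3 of 12 arrays (25412) were fitted as log2(signal + 16) in R 4.3.3 with limma 3.58.1, with 4 group means, 8 residual degrees of freedom and an intensity trend (6.26 prior degrees of freedom). Tests were two-sided, with Benjamini-Hochberg adjustment. A gene (12288 in all) stood for its brightest tested probe set with 1 symbol. The fit was tested on simulated data. Precision is limited by how few arrays each group has.

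The genes described and the lists were chosen with earlier results of these data known. Named are every probe set of the 4 genes, the other family genes, each called gene of a list with up to 4 next by p, the nearest tested neighbours, and the 5 most alike probe sets. Naming second probe sets of called genes was added after their values were seen. Promoters were compared by local alignment. Alternatives were other scaling, pseudocounts, filters, weights, model choices and left-out arrays.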

Additional observations from a re-analysis of the deposited data

Results flagged for a closer look

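Nat8f5 was the single result that drew a closer look. Its high-fat arrays were all below the normal diet arrays in WT livers and all above them in αERKO livers. The interaction was 1.57 ± 0.26 (SE) on the log2 scale. By limma this had an adjusted p of 0.160 and was not called. Over the 22 alternatives the interaction was between 1.35 and 1.73, with adjusted p from 0.109 to 0.681, and none of them called it.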

How the results depend on the processing

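The differences of the 6 probe sets between the genotypes kept their direction under every alternative run, but small ones varied in size. Leaving out 1 array gave 0.065 to 0.52 for 1455232_at of Nat8f2 (lowest without WT normal replicate 3) and 0.25 to 0.51 for Nat8f1 on the normal diet, 0.17 to 0.49 for Nat8f1 on the high-fat diet (lowest without αERKO high-fat replicate 3), and 0.14 to 0.84 for the Nat8 interaction (without WT normal replicates 2 and 3). Array quality weights called 1 of the 6 for diet in αERKO liver, against 0. In that comparison they called 194 of all 25412 probe sets, against 46. Between the genotypes on the high-fat diet they called 7 list genes and 1 neighbour, against 3 and 0. Over all 25412 probe sets they called 1488 there, against 327. For diet in αERKO liver the list genes called went from 1 to 0 under median centring, quantile normalization, no filter, no intensity trend, only the groups compared, and without the 4 arrays with pancreatic transcripts, to 3 under array quality weights and to 2 with 1 probe set a gene. On the normal diet the list genes called went from 2 to 1 under median centring, no intensity trend and only the groups compared. Without the 4 arrays, 6 probe sets did not overlap between the genotypes on the normal diet, against 3, but groups with fewer arrays overlap less readily.

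Leaving out 1 array at a time gave 3 to 5 such probe sets, 1 to 2 list genes called on the normal diet, 0 to 1 for diet in αERKO liver, and 0 to 1 neighbours on the high-fat diet. Some uncalled differences near 0 changed sign, and without the 4 arrays replicate 1 was the only WT high-fat array. For diet in WT, Nat8 was 0.0106 under median centring, 0.0338 under quantile normalization, 0.49 without the 4 arrays and -0.42 to 0.28 leaving out 1 array. Nat8f2 was -0.0785 by 1421108_at without the 4 arrays and -0.0492 to 0.149 leaving out 1, and -0.0131 by 1455232_at with array weights and -0.15 to 0.30 leaving out 1. The interaction without the 4 arrays was 0.0191 for Nat8f1, -0.126 for Nat8 and -0.0542 for 1455232_at of Nat8f2, and leaving out 1 array gave -0.19 to 0.14 for Nat8f1. The cause was not tested.

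Over all tested probe sets the count called for diet in αERKO ranged over the alternatives from 9 to 194 (46 as reported). For diet in WT it was 0 to 22 (7 as reported), and for the interaction 0 to 1 (0 as reported). Between the genotypes it was 94 to 189 (172 as reported) on the normal and 74 to 1488 (327 as reported) on the high-fat diet. The number tested differed, with 25412 as reported, 12264 with 1 probe set a gene and 45101 with no filter.

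The main fit did not treat equal replicate numbers as pairs, and whether they shared a batch is not known. Of 18 same-number pairs, 5 had deviations correlated above 0.1, with r from -0.27 to 0.21. With the replicate block the Nat8f5 interaction was 1.57 ± 0.27 (SE, limma adjusted p = 0.319), and the block called 0 of the 6 probe sets in either diet comparison or the interaction. Over all 25412 probe sets the block called 6 for diet in WT, 41 for diet in αERKO and 0 for the interaction.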
